A study of Mus musculus with 2 samples.

Results

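The tektin genes Tekt1, Tekt2, Tekt3, Tekt4 and Tekt5 were chosen by name, and all 5 were found among the 31053 genes counted in each library. The study profiled single cells from adult C57BL/6 mouse testis with the 10x Chromium 3′ kit. Per the labels' protocol and source field, germ cells with a tetraploid DNA content were sorted by flow cytometry first, whereas both sample titles name whole testis. One library is labelled Zfp541-/-, that is homozygous for a mutant allele of Zfp541, and the other is labelled WT. The labels do not give the part of Zfp541 that was deleted or the number of mice behind a library. With 1 library per genotype no difference between genotypes could be tested, so all intervals given are 95% intervals that cover counting error only and say nothing of the spread between mice.

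Tektins are long coiled-coil proteins that polymerise into filaments inside the A tubule of the doublet microtubules of motile cilia and sperm flagella. They belong to the microtubule inner proteins, which line the lumen of the doublet and stabilise it against the bending of the beat. In mice, loss of Tekt2 gives immotile sperm and infertility, loss of Tekt3 or Tekt4 impairs sperm movement, and Tekt5 is the member most restricted to sperm. The flagellum is assembled in spermatids, after meiosis, while a part of the transcripts for its proteins already accumulates in pachytene spermatocytes.

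The authors' annotation gave 8833 cells with 119675250 unique molecular identifiers (UMIs, each standing for 1 captured transcript) in the library labelled Zfp541-/-, and 8420 cells with 108612781 UMIs in the WT library. It assigned each cell to 1 of 25 clusters and 15 stages, named Diff.Spg1 to Diff.Spg3 (differentiated spermatogonia), pre.L, L, Z (preleptotene, leptotene, zygotene), eP, mP, lP (early, mid and late pachytene), D (diplotene), MI (first meiotic division), RS.1 to RS.3 (round spermatids) and ES (elongated spermatids). The library labelled Zfp541-/- had 3210 cells before pachytene, 13 in diplotene and none later, whereas the WT library had 122 cells before pachytene and also held annotated spermatids, which are not tetraploid. The libraries shared 17 cell barcodes. Zfp541 itself went against the label, with 81.9 UMIs for each 1e+06 UMIs of the same cells (CPM) in mid pachytene and 70.6 CPM in late pachytene of the library labelled Zfp541-/-, against 28.1 and 35.8 CPM in the WT library. Reads from the 3′ end check the genotype only if they fall in the deleted part, so this does not settle the label. The defining pachytene markers Piwil1, Pou5f2, Mybl1, Adam2 and Ldhc summed to 8376 CPM in mid pachytene of the library labelled Zfp541-/- and 8695 CPM in WT, of which Ldhc alone gave 7003 and 7579 CPM. In the same cells 5 leptotene and zygotene markers summed to 100.9 CPM in the library labelled Zfp541-/- and 22.0 CPM in WT, and 5 meiotic division markers to 99.98 and 190.6 CPM. In late pachytene they summed to 86.6 and 92.9 CPM in the library labelled Zfp541-/-, against 19.7 and 182.7 CPM in WT. Their part in the tektin differences was not tested. Each of the 6 lists of somatic markers summed to at most 5.04 CPM in mid or late pachytene of either library. Prm1, Prm2, Tnp1 and Tnp2, which mark elongating spermatids, had 0 UMIs in mid pachytene of the library labelled Zfp541-/- but 273.3 CPM in mid pachytene and 551.0 CPM before pachytene in WT, where all 4 were detected.

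On the GRCm38 assembly (GENCODE vM21), Tekt1 (ENSMUSG00000020799) lies at chr11:72344722-72362442 on the minus strand. Tekt3 (ENSMUSG00000042189) lies on the plus strand of the same chromosome, at chr11:63061654-63094964. Tekt2 (ENSMUSG00000028845) occupies chr4:126322121-126325688 on the minus strand and overlaps 1 antisense gene, Gm12945, which is not among the genes counted. Tekt4 (ENSMUSG00000024175) is at chr17:25454615-25476602 on the plus strand, and Tekt5 (ENSMUSG00000039179) at chr16:10357948-10395490 on the minus strand.

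The bases just before the transcription start of the 5 genes are shown, and 4 of the genes hold GTTGC close to the start. A link between these bases and the tektin levels was not tested. GTTGC forms each arm of the X-box, the element bound by RFX factors, which control ciliary genes. The sequences are RefSeq's, on GRCm38.p6, 5′ to 3′ along the gene's strand, each 60 bases long, with GTTGC or its reverse complement GCAAC in capitals. The window ends 6 bases before the RefSeq start (the 5′-most where several are listed), except for Tekt5, whose only GTTGC lies 235 to 231 bases before its start. They are, in turn, chr11:72361888-72361947 for Tekt1, chr4:126325694-126325753 for Tekt2, chr11:63061594-63061653 for Tekt3, chr17:25471525-25471584 for Tekt4 and chr16:10395646-10395705 for Tekt5. In GENCODE vM21 none of the windows overlaps an exon of its tektin, and those of Tekt1 and Tekt4 lie in an intron of a longer transcript.
Tekt1: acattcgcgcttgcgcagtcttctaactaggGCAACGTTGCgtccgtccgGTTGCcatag
Tekt2: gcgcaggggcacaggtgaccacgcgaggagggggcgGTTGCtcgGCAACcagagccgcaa
Tekt3: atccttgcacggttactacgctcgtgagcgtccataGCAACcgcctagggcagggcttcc
Tekt4: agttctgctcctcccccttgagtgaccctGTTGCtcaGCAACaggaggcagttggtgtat
Tekt5: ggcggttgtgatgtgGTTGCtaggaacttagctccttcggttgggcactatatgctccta

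GTTGC, read on either strand, was found within 65 to 6 bases before the start in 4 of 5 tektins and in 8.59% of 27025 mouse promoters. Over the full 250 bases before the start it was found in 5 of 5 tektins and in 30.1% of promoters. The paired form GTTGCNNNGCAAC, which contains GTTGC on both strands, was found in 2 tektins, as GTTGCTCGGCAAC 29 to 17 bases before the start of Tekt2 and as GTTGCTCAGCAAC 36 to 24 bases before that of Tekt4, and in 0.207% of promoters over 250 bases. The full cAMP response element TGACGTCA was found in 0 of 5 tektins and in 1.60% of promoters. These motifs and windows were chosen after the sequences had been seen, and a match describes letters and not bound sites.

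Before pachytene the tektins were scarce. The 3210 cells of the library labelled Zfp541-/- held 95 Tekt1 UMIs (6.31 CPM, interval 5.11 to 7.72), 108 Tekt2 UMIs (7.18 CPM, 5.89 to 8.66), 4 Tekt3 UMIs, 12 Tekt4 UMIs and 7 Tekt5 UMIs. The 122 WT cells held 7, 5, 1, 2 and 0 UMIs of Tekt1 to Tekt5, and 0 UMIs there allow up to 9.29 CPM. Stage by stage in the library labelled Zfp541-/-, Tekt1 was flat at 4.41 to 8.81 CPM. Tekt2 went the other way from its later course, being highest in Diff.Spg1 at 14.6 CPM (31 UMIs), then 12.2 CPM in Diff.Spg2 and 5.01 CPM in Diff.Spg3, and 4.95, 3.52 and 1.61 CPM in preleptotene, leptotene and zygotene (4 UMIs in zygotene). The 5 Sertoli markers summed to 13.4 CPM and Prm1, Prm2, Tnp1 and Tnp2 to 2.66 CPM over those same cells before pachytene. Their part in the early Tekt2 level was not tested.

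In the WT library each tektin had its own course. Onset was taken as the first stage whose lower bound lay above 10% of the gene's highest WT stage. By this rule Tekt1 began in early pachytene, Tekt3 and Tekt5 in late pachytene, Tekt2 in diplotene and Tekt4 in the first meiotic division. The named stage depends on the threshold for every tektin, and Tekt1 was the earliest or tied for earliest and Tekt4 later than Tekt1 and Tekt3 at 5%, 10% and 25%.

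Tekt1, found in both cilia and flagella, had 195.7 CPM in early, 326.4 in mid and 377.4 in late pachytene, 467.4 in diplotene and 683.0 in the first meiotic division. It reached 745.4, 1052 and 619.8 CPM in RS.1, RS.2 and RS.3 and was at 69.5 CPM in elongated spermatids. It thus stood at 18.6% of its RS.2 level by early pachytene and was higher at each following stage up to RS.2, with no neighbouring pair of these stages within counting error.

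Tekt2, needed for sperm motility, had 13.3 CPM in early, 88.3 in mid and 122.8 in late pachytene, 126.9 in diplotene and 178.3 in the first meiotic division. The round spermatid stages had 424.0, 1185 and 829.0 CPM, and elongated spermatids 27.1 CPM. Late pachytene and diplotene did not differ beyond counting error, nor did early pachytene and elongated spermatids. The division stage stood at 15.0% of RS.2, so most of the difference lay after meiosis.

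Tekt3, which contributes to forward movement of sperm, had 5.56 CPM in early, 27.4 in mid and 67.8 in late pachytene, 104.0 in diplotene and 174.4 in the first meiotic division. RS.1, RS.2 and RS.3 had 172.4, 250.7 and 133.4 CPM, and elongated spermatids 5.89 CPM. The division stage, at 69.5% of RS.2, and RS.1 did not differ beyond counting error. Tekt3 was higher at each stage from early pachytene to division.

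Tekt4, also needed for progressive motility, had 18.9 CPM in early, 19.2 in mid and 23.4 in late pachytene, 63.4 in diplotene and 276.6 in the first meiotic division. Its round spermatid stages had 412.8, 848.7 and 553.7 CPM and elongated spermatids 16.5 CPM. Late, mid and early pachytene and elongated spermatids, which follow each other in the order of levels, did not differ from 1 to the next beyond counting error, while late pachytene lay below diplotene. The first diplotene cluster still had 24.8 CPM, while the 2 later diplotene clusters had 68.7 and 77.3 CPM, followed by 158.9, 305.4 and 291.1 CPM in the 3 division clusters.

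Tekt5, the sperm tektin, had 2.22 CPM in early, 11.8 in mid and 16.3 in late pachytene, 16.4 in diplotene and 15.9 in the first meiotic division. It was lower in RS.1 at 6.05 CPM and RS.2 at 11.2 CPM, then highest in RS.3 at 110.2 CPM (102.9 to 117.8), with 45.9 CPM in elongated spermatids. Late pachytene, diplotene and the division stage did not differ beyond counting error, nor did mid pachytene and RS.2. Tekt5 thus had a low plateau during meiosis, a dip at RS.1 and its highest level 1 round spermatid stage after the other 4 tektins.

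**Figure D1:**
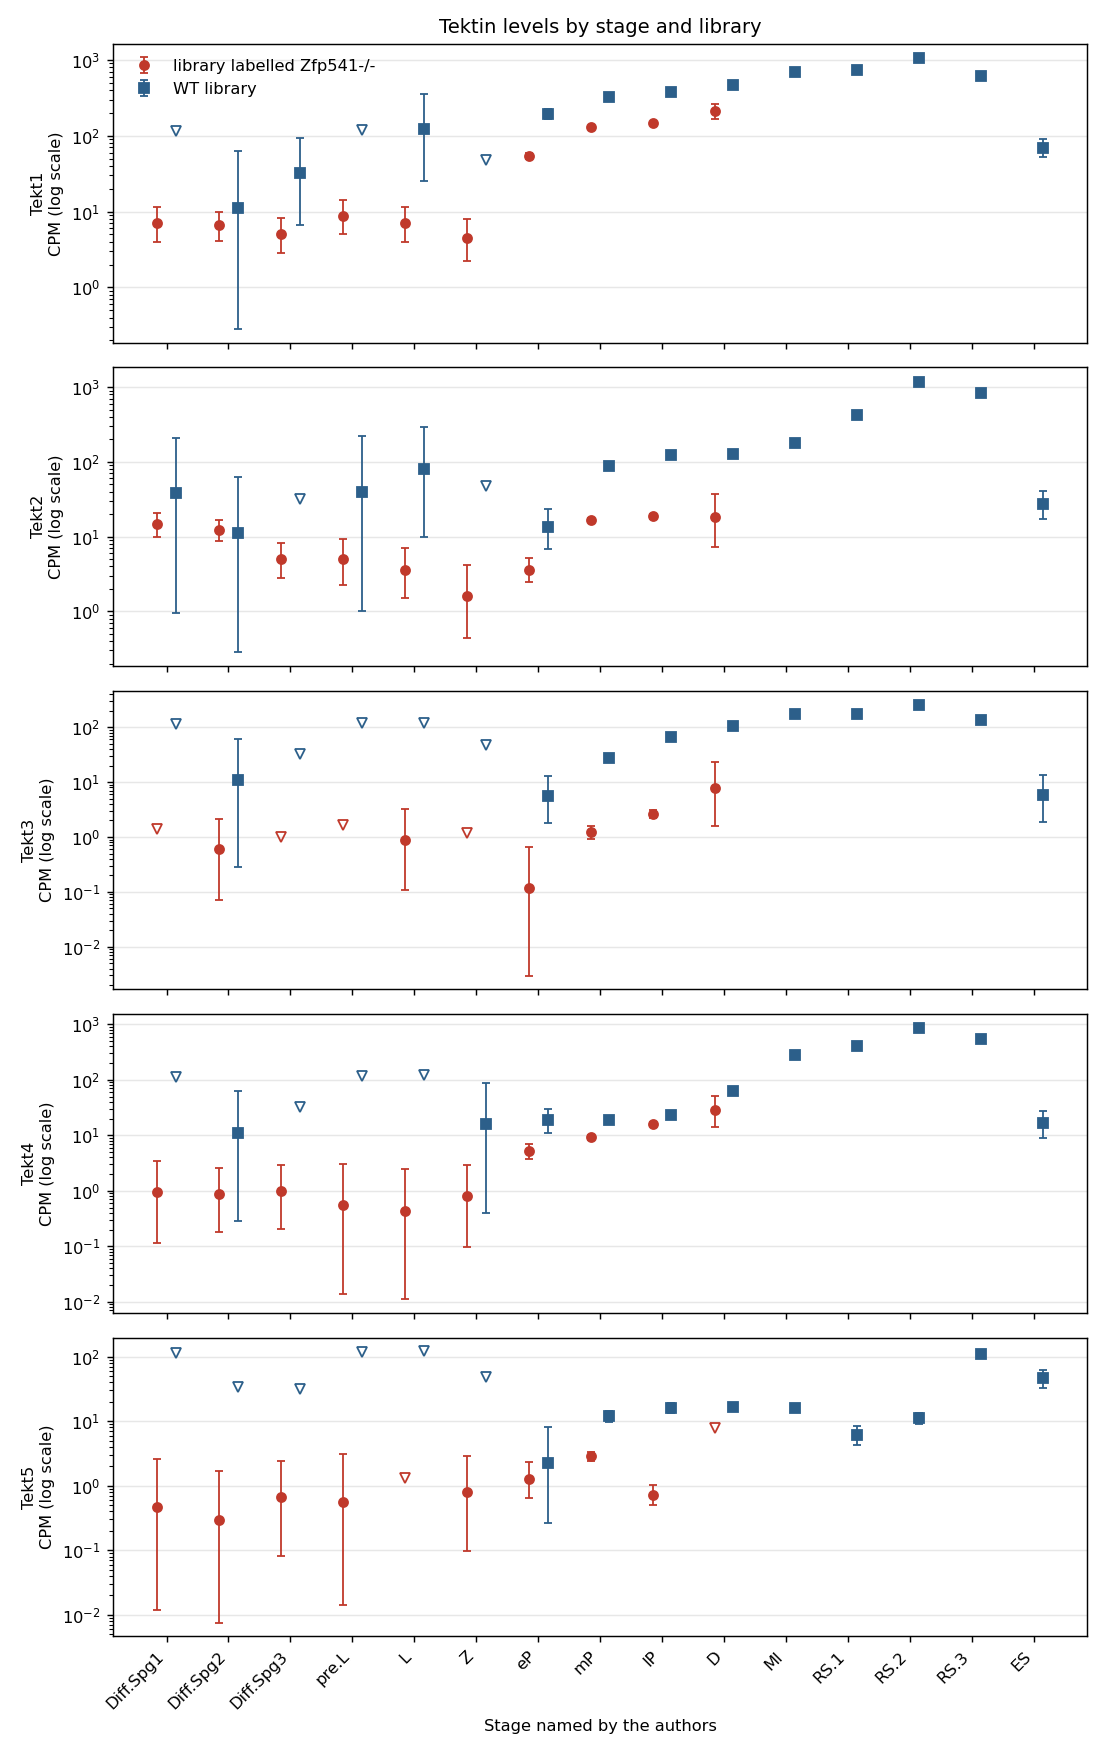
CPM (log scale) of each tektin by the authors' stage in the library labelled Zfp541-/- (circles) and the WT library (squares), with 95% Poisson intervals for counting error. Open triangles mark stages with 0 UMIs at the CPM of 3 counts, and the WT library has 8 to 39 cells in each stage before eP, so only its later stages are precise.

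**Figure D2:**
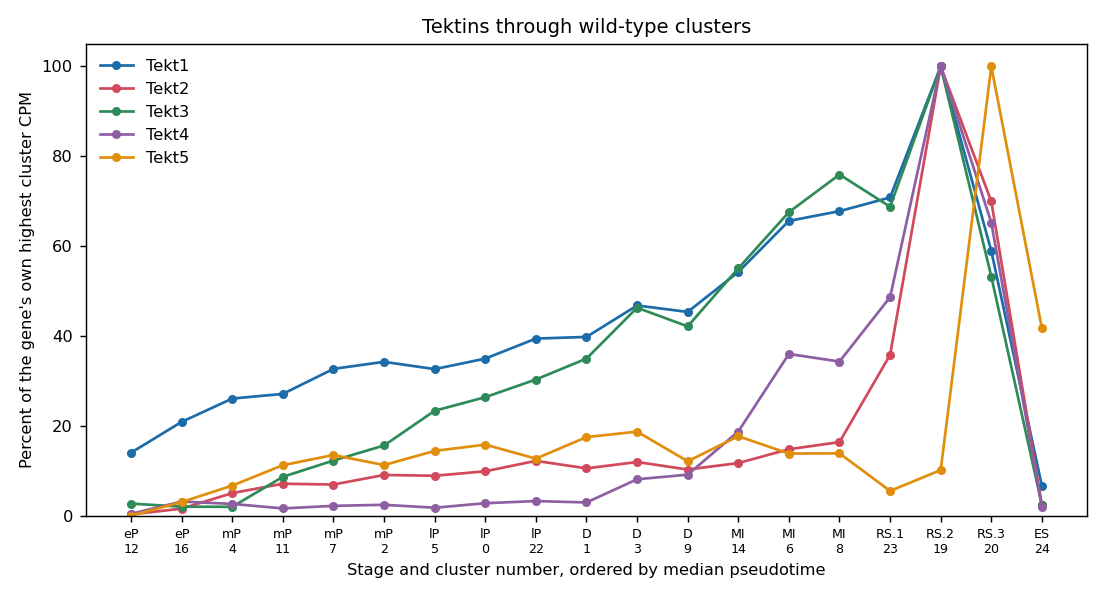
Level of each tektin in the WT clusters from early pachytene to elongated spermatids, as a percent of the gene's own highest cluster CPM, against clusters in order of the median of the deposited pseudotime over both libraries. Tekt1 and Tekt3 climb through meiosis, Tekt4 steps up between diplotene and division, Tekt2 mainly in spermatids, and Tekt5 peaks in RS.3.

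WT cells of RS.2 held on average 15.8 UMIs of Tekt1, 17.8 of Tekt2, 3.77 of Tekt3, 12.8 of Tekt4 and 0.168 of Tekt5, and RS.3 cells held 2.18 UMIs of Tekt5. A 3′ library counts transcripts whatever their length, but priming differs between genes, so levels are compared within a gene only.

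The genes whose course was most like each tektin's were found by Pearson's r of log2(CPM + 1) over the 9 WT stages of at least 50 cells, among 10371 genes. These points share 1 library and the r values are a description. For Tekt1 they were Med9 (r = 0.993), Mul1 (0.989) and 1700008O03Rik (0.988). For Tekt2 they were Ccdc103 (0.996), a dynein assembly factor, Saxo2 (0.994) and 4930519G04Rik (0.980). Tekt3 came closest to Gm45442 (0.991), Ccl27a (0.989) and Dmrtb1 (0.988), and Tekt4 to Ppp2r2d (0.991), Gm30676 (0.985) and Hist1h2bp (0.978). Tekt5 had the least close matches, with Ipo13 (0.966), Slc25a35 (0.949) and Pold4 (0.929). In late pachytene the log2 ratios of these 15 genes, library labelled Zfp541-/- over WT, lay between -3.91 for Pold4 and 1.55 for Ipo13. Those of the 3 genes nearest to Tekt3 were -0.99, -0.70 and -0.36, and Hist1h2bp, near Tekt4, was at -1.76. Several of these ratios rest on low levels. Pold4 had 0.0853 CPM in the library labelled Zfp541-/- and 1.38 CPM in WT, and Hist1h2bp 0.896 and 3.01 CPM. Gm45442 had 1.79 and 3.51 CPM, Gm30676 0.512 and 0.627 CPM, and Slc25a35 1.02 and 1.75 CPM. The ratios of these low genes are not read as losses. Ccdc103 had 64.8 CPM in the library labelled Zfp541-/- and 64.5 CPM in WT, and Med9 had 251.3 and 232.9 CPM. Ipo13, a nuclear transport receptor, had 61.7 CPM in the library labelled Zfp541-/- and 21.1 CPM in WT, whereas 1700008O03Rik had 4.50 and 24.9 CPM.

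All 5 tektins had a lower CPM in mid and late pachytene of the library labelled Zfp541-/- than in those of WT. The gap was widest for Tekt3 and smallest for Tekt4 in both stages, and for Tekt5 it was wider in late than in mid pachytene. For mid pachytene, 10.6% of all genes that reached 10 CPM in either library were at least 2-fold lower in the library labelled Zfp541-/- and 15% at least 2-fold higher. In late pachytene 14.3% were at least 2-fold lower and 17.4% higher. Of the tektins, 5 of 5 were at least 2-fold lower in mid pachytene and 4 of 5 in late pachytene, but 3 in mid and 2 in late pachytene reached 10 CPM only in the WT library, so these passed the minimum through the WT level alone. The median log2 ratio over all genes was 0.15 in mid and 0.11 in late pachytene, and a median-of-ratios scaling shifts every ratio down by 0.14 and 0.10.

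In mid pachytene (2501 cells of the library labelled Zfp541-/- and 1207 of WT), Tekt3 had 1.23 CPM (60 UMIs) in the library labelled Zfp541-/- and 27.4 CPM (266 UMIs) in WT, a log2 ratio of -4.47 (-4.91 to -4.07). Tekt2 had 16.7 CPM against 88.3 CPM in WT (log2 ratio -2.40, -2.54 to -2.26). Tekt5 had 2.87 CPM against 11.8 CPM in WT (-2.04, -2.41 to -1.68). These 3 genes were 22.1-fold, 5.28-fold and 4.13-fold lower in CPM in the library labelled Zfp541-/-. Tekt1 had 130.8 CPM against 326.4 CPM in WT (-1.32, -1.38 to -1.26), and Tekt4 9.24 CPM against 19.2 CPM (-1.06, -1.31 to -0.80).

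In late pachytene (1945 cells of the library labelled Zfp541-/- and 827 of WT), Tekt3 had 2.65 CPM in the library labelled Zfp541-/- and 67.8 CPM in WT (log2 ratio -4.68, -4.97 to -4.40). Tekt5 had 0.725 CPM (34 UMIs) against 16.3 CPM (130 UMIs) in WT (-4.47, -5.08 to -3.94). Tekt2 had 18.6 CPM against 122.8 CPM in WT (-2.72, -2.85 to -2.59). Tekt3 and Tekt5 were thus 25.5-fold and 22.2-fold lower in CPM and Tekt2 6.59-fold lower. Tekt1 had 147.1 CPM against 377.4 CPM in WT (-1.36, -1.42 to -1.30). Tekt4 was 1.45-fold lower, with 16.2 CPM against 23.4 CPM in WT (-0.54, -0.77 to -0.29).

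The size of the gap depended on the scale, because pachytene cells of the library labelled Zfp541-/- were deeper, with a median of 18665 UMIs in mid and 23690 in late pachytene, against 7945 and 9210 in WT. Counted per cell, Tekt1 was nearly level between the libraries, with 2.55 UMIs in mid pachytene of the library labelled Zfp541-/- and 2.63 in WT (log2 ratio -0.04, -0.10 to 0.02), and 3.55 and 3.64 UMIs in late pachytene (-0.04, -0.10 to 0.02). Tekt4 turned round, with 0.180 UMIs per cell against 0.155 in WT in mid pachytene (0.22, -0.03 to 0.47) and 0.390 against 0.226 in late pachytene (0.78, 0.55 to 1.03). Tekt2, Tekt3 and Tekt5 were below WT on both scales. Tekt3 had 0.0638 UMIs per late pachytene cell in the library labelled Zfp541-/- and 0.654 in WT (-3.35), Tekt5 0.0175 and 0.157 (-3.15), and Tekt2 0.449 and 1.19 (-1.40). In mid pachytene the log2 ratios per cell were -3.19 for Tekt3, -1.13 for Tekt2 and -0.77 for Tekt5. The pachytene markers moved with depth, at 163.4 UMIs per mid pachytene cell in the library labelled Zfp541-/- and 70.0 in WT. RNA content of the cells and capture or sequencing depth cannot be told apart with 1 library per genotype.

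**Figure D3:**
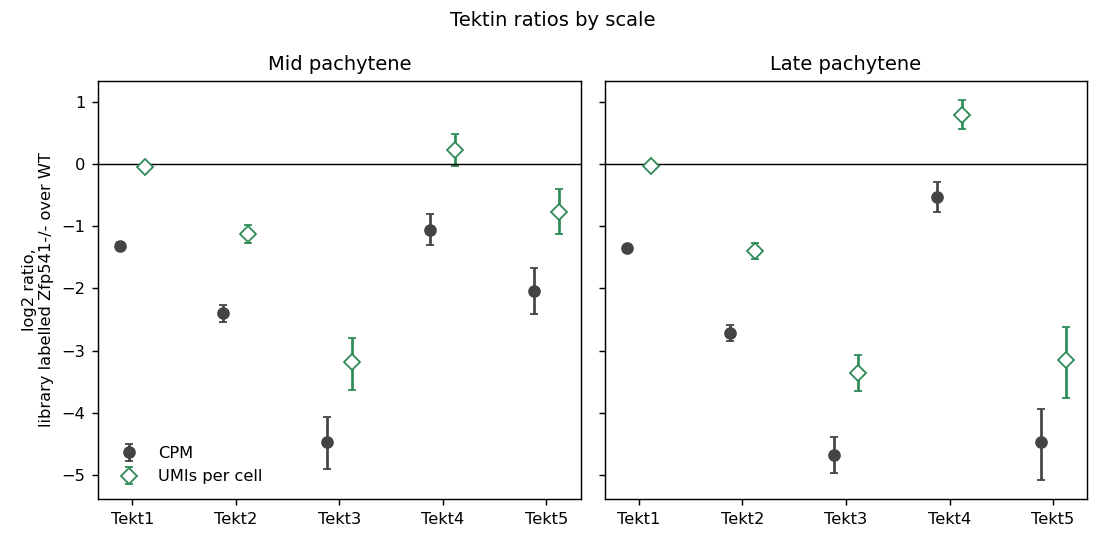
Log2 ratio of each tektin, library labelled Zfp541-/- over WT, in mid and late pachytene, as CPM (filled circles) and as UMIs per cell (open diamonds), with 95% intervals for counting error. Tekt2, Tekt3 and Tekt5 lie below 0 on both scales, Tekt1 is near 0 per cell and Tekt4 is above 0 per cell.

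Shares of cells with at least 1 UMI were compared after each cell was thinned to 3000 UMIs. In late pachytene Tekt1 was seen in 34.6% of cells of the library labelled Zfp541-/- (exact interval 32.5 to 36.7%) and in 67.6% of WT cells (64.3 to 70.8%), and Tekt2 in 5.81% (4.81 to 6.95%) and 30.5% (27.4 to 33.8%). Tekt3 was seen in 0.874% (0.510 to 1.40%) against 17.8% in WT (15.3 to 20.6%), and Tekt4 in 4.17% (3.32 to 5.15%) against 6.30% (4.74 to 8.18%), intervals that overlap. Spermatogonia, which build no flagellum, gave the background. For Tekt2 this is not a floor, with 10.3 CPM in spermatogonia and 1.61 CPM in zygotene of the library labelled Zfp541-/-. In that library, thinned alike, 1075 spermatogonia had shares of 1.77%, 2.70%, 0.186%, 0.186% and 0.279% for Tekt1 to Tekt5. WT kept 23 spermatogonia at this depth, too few for a background. Tekt5 in late pachytene, at 0.206% (4 of 1944 cells) against 4.24% in WT (35 of 825 cells), was below that background and is not read as expression. In mid pachytene the thinned shares for Tekt1 to Tekt5 were 31.9%, 5.04%, 0.320%, 2.40% and 0.761% in the library labelled Zfp541-/-, against 63.3%, 23.2%, 8.33%, 4.50% and 3.00% in WT. The thinned intervals of Tekt3 (0.138 to 0.630%) and Tekt5 (0.459 to 1.19%) in mid pachytene of the library labelled Zfp541-/- overlapped those of its spermatogonia (0.0225 to 0.670% and 0.0576 to 0.813%). On all UMIs of the same library the CPM intervals did not overlap. Tekt3 had 1.23 CPM (0.938 to 1.58) in mid pachytene and 0.236 CPM (0.0286 to 0.853) in spermatogonia. Tekt5 had 2.87 CPM (2.41 to 3.39) and 0.472 CPM (0.129 to 1.21). Thinning left out 3 cells of the library labelled Zfp541-/- and 7 of WT in mid pachytene, and 1 and 2 in late pachytene. At full depth the late pachytene shares were 91.9%, 35.9%, 6.17%, 30.5% and 1.70% for Tekt1 to Tekt5 in the library labelled Zfp541-/-, against 96.6%, 68.9%, 48.1%, 19.8% and 14.4% in WT. Spermatogonia of the library labelled Zfp541-/- had 4.35%, 6.99%, 0.171%, 0.682% and 0.341% at full depth, with a median of 6770 UMIs.

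Early pachytene held too few WT cells for 4 of the tektins. In its first cluster, number 12 (713 cells of the library labelled Zfp541-/- and 75 of WT), Tekt1 had 29.9 CPM in the library labelled Zfp541-/- and 147.4 CPM in WT (log2 ratio -2.31, -2.80 to -1.78), and no other tektin reached 10 CPM. In its second cluster, number 16 (451 and 155 cells), Tekt1 had 84.8 CPM against 219.6 CPM in WT (-1.38, -1.67 to -1.07), Tekt2 5.62 against 18.3 CPM (21 and 11 UMIs) and Tekt4 6.96 against 26.6 CPM (26 and 16 UMIs). The other tektins there had few UMIs, with 0 of Tekt3 and 4 of Tekt5 in the library labelled Zfp541-/-, against 3 and 2 in WT. The 1 tektin that reached 10 CPM in cluster 12 was at least 2-fold lower, where 8.77% of all genes that reached it were lower and 14.4% higher. In cluster 16, where 8.7% of genes were lower and 20.4% higher, Tekt1, Tekt2 and Tekt4 reached 10 CPM and were at least 2-fold lower, Tekt2 and Tekt4 having passed the minimum through the WT level alone. Prm1, Prm2, Tnp1 and Tnp2 summed to 365.3 CPM in cluster 12 and 945.1 CPM in cluster 16 of WT. They had 0 UMIs in both clusters of the library labelled Zfp541-/-, and their part in these ratios was not tested. In cluster 16 the median-of-ratios shift was 0.25. When the WT level before pachytene was taken off the WT value alone, the log2 ratio of Tekt2 there turned to 0.65. The library labelled Zfp541-/- had 7.18 CPM of Tekt2 before pachytene, which was not taken off its 5.62 CPM.

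Clusters are ordered by median pseudotime over both libraries, which differed within a cluster in either direction. The medians were -16091 in the library labelled Zfp541-/- and -16685 in WT in mid pachytene cluster 2, and -12215 and -11569.5 in late pachytene cluster 0. In WT alone cluster 2 lay before cluster 7 (-16281), which precedes it in this order. The part of these shifts in the ratios was not tested. Within the 7 mid and late pachytene clusters, taken in this order, Tekt1 kept a narrow range of log2 ratios from -1.38 to -1.26. For Tekt3 the log2 ratio lay between -4.80 and -3.75 in each, and for Tekt2 between -2.84 and -2.20. In the first mid pachytene cluster Tekt3 had 3 UMIs in the library labelled Zfp541-/- and 10 in WT (-6.40 to -1.94). That library had 6 Tekt3 UMIs in the next mid pachytene cluster and 6 in the last late pachytene cluster. Tekt5 took a course of its own. Its level in the library labelled Zfp541-/- was 6.25 CPM in the first mid pachytene cluster, then 3.63, 1.90 and 1.53 CPM in the next 3, and 0.815, 0.659 and 0.498 CPM in the 3 late pachytene clusters. The same clusters of WT had 7.36, 12.4, 14.9, 12.4, 15.9, 17.4 and 14.0 CPM. The 3 late pachytene values of the library labelled Zfp541-/- rest on 18, 15 and 1 UMIs of Tekt5. Before pachytene that library had 0.465 CPM of Tekt5 (0.187 to 0.958), an interval that overlaps those of all 3. The log2 ratio of Tekt5 was -0.27 (-1.08 to 0.69) in the first cluster, where the libraries did not differ beyond counting error, and -4.69 (-5.62 to -3.92) in the late pachytene cluster with the most WT cells. Tekt4 was at 5.37 CPM against 22.1 CPM in WT in the first mid pachytene cluster (-2.04, -2.65 to -1.42) and at 15.6 CPM against 14.9 CPM in the first late pachytene cluster (0.02, -0.68 to 0.92), where WT had 15 UMIs. In the 2 later clusters of late pachytene Tekt4 was again below WT, with 17.0 CPM against 23.4 CPM (-0.47, -0.77 to -0.15) and 13.9 CPM against 27.5 CPM (-0.97, -1.68 to -0.31).

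**Figure D4:**
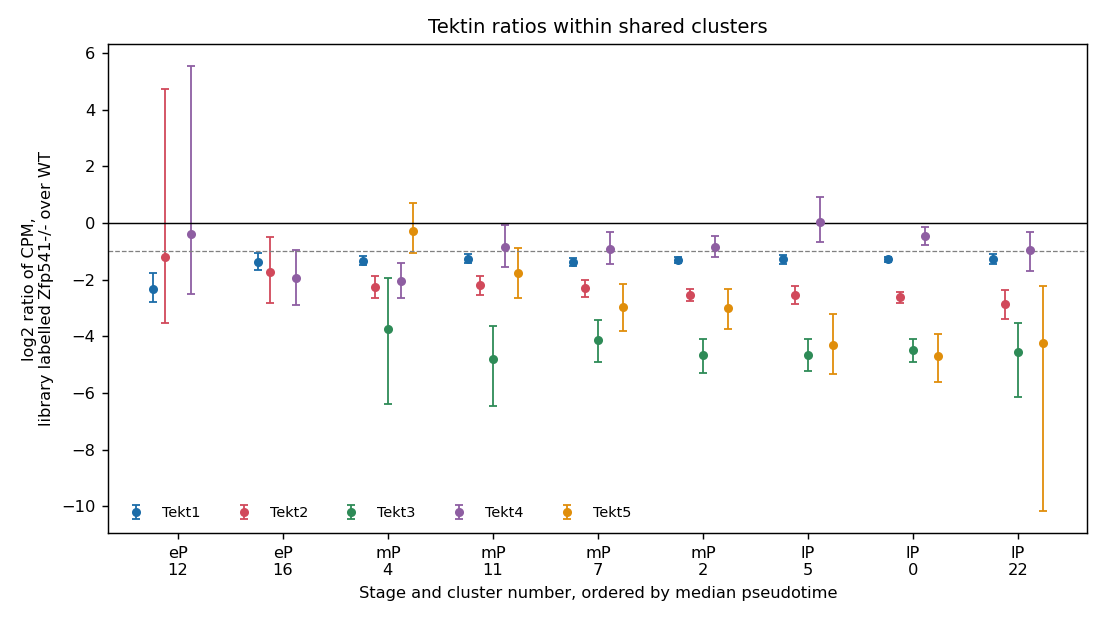
Log2 ratio of CPM, library labelled Zfp541-/- over WT, for each tektin in the 9 pachytene clusters present in both libraries, with 95% intervals for counting error and a dashed line at the 2-fold mark. Points with under 10 UMIs in all, or with 0 in a library, are not drawn; Tekt5 lies near 0 in the first mid pachytene cluster and below -4 in late pachytene.

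The 13 cells of the library labelled Zfp541-/- that were annotated as diplotene held 81 UMIs of Tekt1 (211.3 CPM, 167.8 to 262.6), 7 of Tekt2 (18.3 CPM), 3 of Tekt3 (7.83 CPM), 11 of Tekt4 (28.7 CPM) and 0 of Tekt5. WT diplotene had 467.4, 126.9, 104.0, 63.4 and 16.4 CPM. With 13 cells, 0 UMIs of Tekt5 allow up to 7.83 CPM.

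Spermatid transcripts moved with genotype in these pachytene cells. Prm1, Prm2, Tnp1 and Tnp2 together had 0 UMIs in mid pachytene and 1 UMI in late pachytene of the library labelled Zfp541-/-, against 273.3 and 213.4 CPM in WT, where all 4 were detected. WT cells before pachytene, which had 551.0 CPM of these 4 transcripts, had 0.0393 Tekt1 UMIs for each UMI of the 4, and WT early, mid and late pachytene had 0.260, 1.19 and 1.77. In WT this ratio was 0.0281 before pachytene and 0.575 in late pachytene for Tekt2, 0.00562 and 0.318 for Tekt3, 0.0112 and 0.110 for Tekt4, and 0 and 0.0763 for Tekt5. In WT early pachytene it was 0.0177 for Tekt2, 0.00739 for Tekt3, 0.0251 for Tekt4 and 0.00295 for Tekt5, from 12, 5, 17 and 2 UMIs. For each of Tekt2 to Tekt5 the early pachytene interval overlapped the interval before pachytene. The values before pachytene rest on 7, 5, 1, 2 and 0 UMIs of Tekt1 to Tekt5, and the part of spermatid RNA in the WT tektin levels was not tested. Without the cells holding any UMI of the 4, all 5 ratios stayed below 0 in mid and late pachytene, with 234 and 140 WT cells left. With the WT level before pachytene taken off the WT value alone, Tekt4 had log2 ratios of -0.50 in mid and -0.10 in late pachytene. That level rests on 2 Tekt4 UMIs, and on 1 for Tekt3 and 0 for Tekt5.

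Among other microtubule inner proteins the ratios lay on both sides of 0. Of 28 listed genes for other inner proteins of cilia and sperm, 18 reached 10 CPM in mid pachytene, 4 were at least 2-fold lower in the library labelled Zfp541-/- and 0 at least 2-fold higher, with a median log2 ratio of -0.32, beside 10.6% lower, 15% higher and a median of 0.15 over all genes. In late pachytene 4 of 18 were lower and 0 higher, with a median of -0.08, beside 14.3%, 17.4% and 0.11 over all genes. The 4 lower genes were the same in both stages, and Efcab6, Spag8 and Cfap126 among them reached 10 CPM in the WT library alone. Efcab6 had 2.25 CPM in mid and 2.94 CPM in late pachytene of the library labelled Zfp541-/-, against 16.4 and 40.6 CPM in WT. Spag8 had 7.44 and 6.21 CPM, against 42.5 and 45.7 CPM in WT. Cfap126, the basal body protein Flattop, had 5.19 and 6.27 CPM, against 28.5 and 34.7 CPM in WT. Cfap161 had 15.4 and 16.9 CPM, against 36.1 and 56.9 CPM in WT. The widest log2 ratio among them was that of Efcab6, at -3.78 in late pachytene.

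The other 14 of the 18 were within 2-fold between the libraries in both stages. Of all 18, 11 in mid and 10 in late pachytene had a log2 ratio below 0. Spaca9 had 41.9 CPM in mid pachytene of the library labelled Zfp541-/- and 81.3 CPM in WT. Cfap45 had 96.1 CPM in late pachytene of the library labelled Zfp541-/- and 136.2 CPM in WT. Mns1, needed for flagellar assembly, had 958.0 CPM in late pachytene of the library labelled Zfp541-/- and 539.8 CPM in WT, and Ccdc173 208.9 and 117.3 CPM. Ccdc105, a tektin-like protein, had 18.1 CPM in mid pachytene of the library labelled Zfp541-/- and 23.4 CPM in WT, and 30.1 and 25.7 CPM in late pachytene. The members named in this paragraph were chosen after their values were seen. In early pachytene 4 of 13 measured inner proteins were lower and 1 higher in cluster 12, beside 8.77% and 14.4% of all genes. WT levels there rest on 75 cells, in which 3 UMIs already make 10.1 CPM. Of the lower genes, Cfap53 and Tex33 had 3 WT UMIs each and Spaca9 had 8. The interval of Cfap53 ran from -2.88 to 1.24. In cluster 16, 6 of 15 inner proteins were lower and 0 higher, beside 8.7% and 20.4% of all genes. WT levels in cluster 16 rest on 155 cells. Of the lower genes, Cfap53, Spaca9 and Tex33 in cluster 12 reached 10 CPM in WT alone, as did Cfap52, Cfap53 and Cfap126 in cluster 16.

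Of 10 listed regulators of ciliary or spermatid genes, 6 reached 10 CPM in mid and in late pachytene. In mid pachytene 0 were at least 2-fold lower or higher, beside 10.6% and 15% of all genes. In late pachytene 1 was lower, Tcfl5, a basic helix-loop-helix factor of pachytene spermatocytes, with 236.9 CPM in the library labelled Zfp541-/- and 480.3 CPM in WT (log2 ratio -1.02). That is 1 of 6, beside 14.3% of all genes lower and 17.4% higher. The median log2 ratios were 0.19 in mid and -0.08 in late pachytene, beside 0.15 and 0.11 over all genes. Of the 6, 2 in mid and 4 in late pachytene had a log2 ratio below 0. Sox30, named after its values were seen, had 38.9 and 30.6 CPM in mid and late pachytene of the library labelled Zfp541-/-. In WT Sox30 had 55.9 and 46.2 CPM. Rfx2, the RFX factor required for spermatid cilium genes and here named after its values were seen, had 91.7 and 96.2 CPM in mid and late pachytene of the library labelled Zfp541-/-, against 53.2 and 58.7 CPM in WT. Foxj1, a regulator of motile cilia below 10 CPM in both libraries, had 0.553 and 0.469 CPM in mid and late pachytene of the library labelled Zfp541-/- (27 and 22 UMIs). In WT it had 0.412 and 0.125 CPM (4 and 1 UMIs). Also below 10 CPM in mid pachytene were Rfx3 with 7.48 CPM against 1.13 CPM in WT, Taf7l with 4.32 against 0.309, and Rfx1 with 0.389 against 0.720. The part of any regulator in the tektin levels was not tested.

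**Figure D5:**
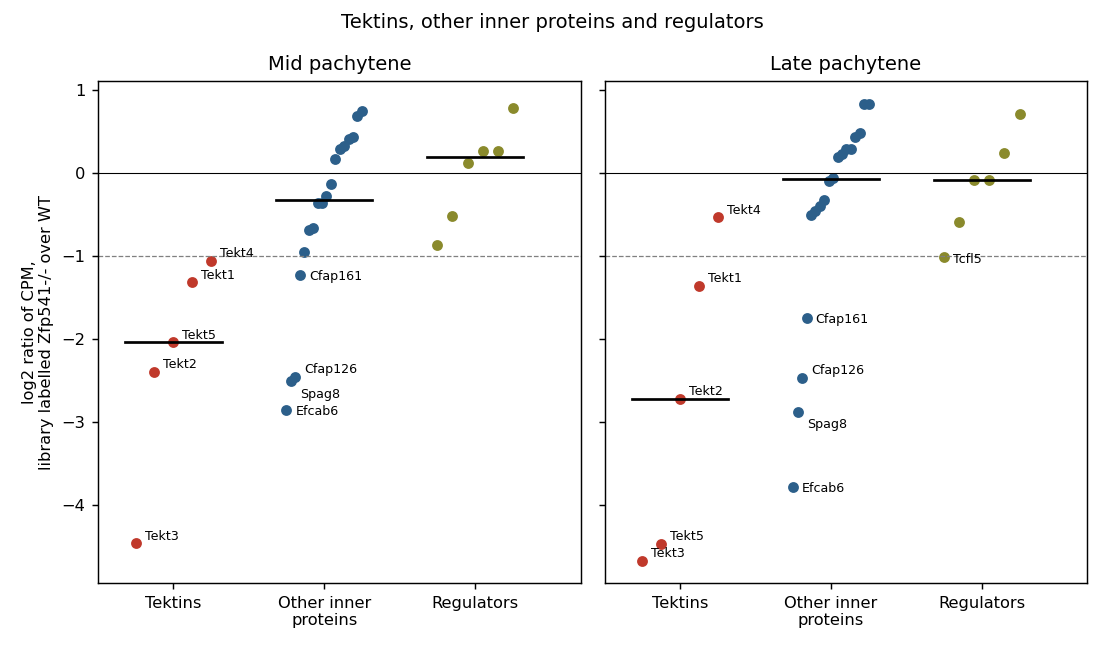
Log2 ratio of CPM, library labelled Zfp541-/- over WT, for the tektins, the other inner proteins and the regulators that reached 10 CPM in either library, in mid and late pachytene, each point a gene, bars the medians and the dashed line the 2-fold mark. The 5 tektins lie below 0 in both panels (Tekt4 only on this scale), while the other lists spread to both sides of 0.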

How the data were processed

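Single-cell libraries were made by the submitters with the 10x Chromium 3′ kit, and Cell Ranger 3.1.0, Seurat 3.2.0 and the mm10 build are named per the submitters' processing notes. The deposited matrices hold raw UMI counts per gene and barcode, and the authors' deposited cell table gives the library, cluster, stage, pseudotime score and percent of mitochondrial UMIs of 17253 cells. Annotated cells had at least 1000 genes and at most 10 percent mitochondrial UMIs. Barcodes without an annotation stayed out of all comparisons, and no doublet caller was run. UMIs were summed per stage, cluster and library and scaled to 1e+06 UMIs of the same cells (CPM). Ratios add 0.5 counts to each sum. Intervals are exact (Poisson, conditional binomial, Clopper-Pearson) at 95% and cover counting error only. A sum of 0 allows 3 counts. Replicates, and so tests, were not available with 1 library per genotype. In simulated counts with 200 genes changed, the ratio script came close to the known values. Those counts held counting error only, as the intervals assume, so this checks the script and not the data.

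The list members named were the up to 6 lowest and up to 4 highest ratios past 2-fold at 10 CPM or more, and the 3 genes most like each tektin. The tektins and lists were chosen with earlier results of these data known. Smrp1 is listed under its older symbol 1110017D15Rik. Sequences and start sites are RefSeq's (GRCm38.p6). Python 3.11.15, NumPy 2.4.6, SciPy 1.17.1, pandas 2.3.3 and Matplotlib 3.10.9 were used. Alternatives changed the scaling, the pseudocount, the minimum CPM, the depth, the cells and the onset threshold.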

Additional observations from a re-analysis of the deposited data

How the results depend on the processing

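No paired analysis was possible because each genotype has 1 library and the labels give no replicate numbers. On UMIs per cell in place of CPM, the log2 ratios in mid and late pachytene were -0.043 and -0.038 for Tekt1, -1.13 and -1.40 for Tekt2, -3.19 and -3.35 for Tekt3, 0.22 and 0.78 (reversed) for Tekt4, and -0.77 and -3.15 for Tekt5. In cluster 12 the per-cell ratios of Tekt4 and Tekt5 turned to 0.38 and 0.66, from 1 and 0 WT UMIs, and Tekt5 to 0.047 without cells above 5% mitochondrial UMIs. Median of ratios gave -1.45 and -1.46 for Tekt1. In an alternative added after seeing the data, the WT level before pachytene was taken off the WT values alone. The ratios were then -1.22 and -1.27 for Tekt1, -2.12 and -2.53 for Tekt2 and -0.50 and -0.10 for Tekt4. Tekt2 in cluster 16 turned to 0.65. WT diplotene cluster 1 in place of WT late pachytene, also added later, gave -1.51 for Tekt1 and -5.05 for Tekt3. Clusters at equal weight gave -1.28 for Tekt1 in late pachytene, and thinning gave -2.58 for Tekt2 there. Across the ratio alternatives on CPM, all 5 ratios stayed below 0 in mid and late pachytene.

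Onset, as the stage's place among 15, was 7, 10, 9, 11 and 9 for Tekt1 to Tekt5. At 5% it was 8 for Tekt2, Tekt3 and Tekt5 and 10 for Tekt4. At 25% it was 8 for Tekt1, 12 for Tekt2, 10 for Tekt3 and 14 for Tekt5. Per cell it was 8 for Tekt1, 11 for Tekt2 and 14 for Tekt5. Without WT cells holding a UMI of Prm1, Prm2, Tnp1 or Tnp2 it was 10 for Tekt5.

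With no minimum CPM, 11 inner proteins were at least 2-fold lower in mid and 11 in late pachytene, where 27.1% and 28.1% of all genes were. At 50 CPM the counts were 0 and 1, a setting at which no share over all genes was taken. Of the 6 regulators that reached 10 CPM, 1 was lower in mid pachytene by median of ratios, beside 12.4% of all genes. With no minimum, 2 of the 10 listed regulators were lower in late pachytene, beside 28.1% of all genes. Shares of cells with a Tekt4 UMI at full depth turned to 1.91 and 10.7 percentage points higher in mid and late pachytene of the library labelled Zfp541-/-. The 230 WT cells of early pachytene limit what can be said of Tekt3 and Tekt5 there, and the 122 WT cells before pachytene limit any onset earlier.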

Other observations

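Barcodes in the matrices without an annotation, 2747 in the library labelled Zfp541-/- and 4219 in the WT library, belong to no comparison above. Those of the library labelled Zfp541-/- had 82.4 CPM of Tekt1, 12.2 of Tekt2, 1.22 of Tekt3, 8.38 of Tekt4 and 1.51 of Tekt5. Those of the WT library had 555.7 CPM of Tekt1, 316.0 of Tekt2, 132.4 of Tekt3, 273.6 of Tekt4 and 29.7 of Tekt5. The stage of these barcodes is not given.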
